A study of Mus musculus with 8 samples.

Results

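Cyclic nucleotide phosphodiesterases are the enzymes that break down cAMP and cGMP, and 8 genes of this family, Pde3b, Pde1b, Pde2a, Pde4a, Pde4b, Pde4d, Pde7a and Pde8a, were followed in mouse splenocytes. They are 8 of 51826 genes in the count table, and each was found by its symbol, which matched 1 identifier. Pde3b was chosen by its own values in these mice, since the study shows it among the genes it called changed by tRA, so its difference between the groups is described here without a test. The other 7 were selected on family membership, with earlier results of these data known. Total splenocytes of 8 BALB/c mice, female by the study's methods, were sequenced at 3 months of age, 4 mice given all-trans-retinoic acid (tRA), which vitamin A is turned into to act on nuclear receptors, and 4 control mice given the vehicle. By the study's methods, tRA in canola oil was given by mouth each day from weaning at a dose of 1 mg/kg, and no mouse of either group received pristane, the oil that induces lupus in the study's other experiments. The labels of all 8 samples carry the tRA dose, and the grouping follows the sample titles. Counts on genes totaled between 30919272 and 37539631 per control mouse and between 31810417 and 35165876 per tRA mouse.

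Phosphodiesterases set how long and how far a cAMP or cGMP signal lasts. Receptors coupled to the stimulatory G protein turn on adenylyl cyclases, cAMP then acts through protein kinase A and Epac, and phosphodiesterases end the signal by hydrolysing the cyclic nucleotide. In lymphocytes and myeloid cells cAMP restrains activation, and the cAMP-specific Pde4 enzymes are the targets of anti-inflammatory drugs.

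Genes that mark B cells and T cells, the main cells of the spleen, were high in every mouse. Levels between genes are compared per length, as RPKM, the counts per kilobase of a gene's merged exons and per 1000000 counts scaled by the TMM method. Cd79a, a chain of the B cell receptor complex, had a mean level of 958 RPKM in control mice and 873 RPKM in tRA mice, and Trac, the constant region of the T cell receptor alpha chain, 304 and 330 RPKM. Hbb-bs, a beta globin of red cells, had a level of 1089 and 1487 RPKM and differed widely between mice of the same group. In the platelet list, Pf4, Ppbp, Gp9 and Gp1bb were under 1 CPM in every mouse, where CPM is a count per 1000000 scaled counts.

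The libraries of tRA replicates 3 and 4 stood apart in the summed level of genes that respond quickly to cAMP and other stimuli. Fos, the most abundant of them, averaged 3184 CPM in control mice, and not every gene of the list shared the pattern. The summed level of the 9 genes of this list was 7002, 6336, 6053 and 5846 CPM in control mice 1 to 4, and 7908, 5638, 2010.1 and 2714 CPM in tRA mice 1 to 4. The values of Pde3b are therefore also given without those 2 mice, a setting chosen after seeing the data.

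Pde3b encodes a cAMP phosphodiesterase that cGMP inhibits and that insulin activates through PI3K and Akt. It lies on the plus strand at chr7:114415281-114539251 (GRCm38), and its identifier is ENSMUSG00000030671. Its level was 69.4, 46.6, 44.5 and 54.3 CPM in control mice 1 to 4 and 90.9, 81.1, 68.0 and 81.6 CPM in tRA mice 1 to 4. The groups overlapped by 1 pair of mice, as control mouse 1 lay above tRA mouse 3, and the other 3 tRA mice lay above every control mouse. The means were 53.7 ± 11.3 CPM in control mice and 80.4 ± 9.44 CPM in tRA mice (SD, n = 4 each), and these values rest on 1498 to 2977 counts per mouse. The log2 fold change, tRA over control, was 0.58. With tRA mice 3 and 4 left out it was 0.68. With each mouse left out in turn it ranged from 0.50, without control mouse 3, to 0.73, without control mouse 1.

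Across the genome, edgeR's quasi-likelihood test called 0 of the 16484 genes that passed its filter on low counts at an FDR under 0.1, or 0% of them, and 1070 genes (6.49%) had an unadjusted p under 0.05. By DESeq2, 27 of 13625 genes with an adjusted p were called (0.198%), and by limma-voom 1 gene was. All 8 members passed the filter on low counts. Of the 7 members other than Pde3b, 0 were called by edgeR, DESeq2 or limma-voom, and 0 had an unadjusted p under 0.05 in edgeR. None of the 8 members had all 4 tRA mice on one side of all 4 control mice, a pattern that 1.91% of the genes tested showed with tRA above and 1.63% with tRA below.

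**Figure D1:**
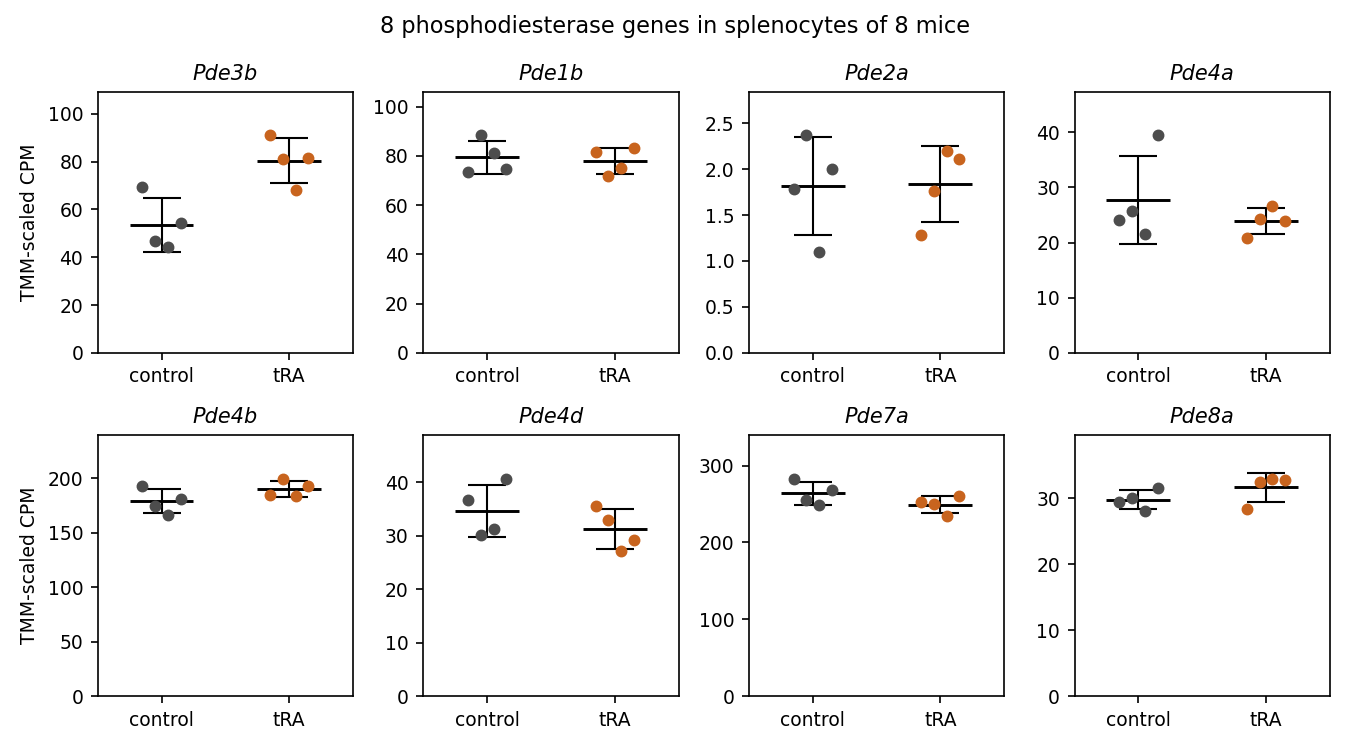
Level of the 8 members in each mouse, in CPM scaled by TMM on an axis that starts at 0, with points for mice 1 to 4 from left to right, a long bar for the group mean and error bars for 1 SD (n = 4). In Pde3b, tRA mice lay between 68.0 and 90.9 CPM and control mice between 44.5 and 69.4 CPM, and in each of the 8 panels the groups overlapped.

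The Pde4 genes encode enzymes that hydrolyse cAMP alone. Pde4b, at chr4:102087543-102607259, measured 193, 175, 167 and 181 CPM in control mice and 185, 200, 184 and 193 CPM in tRA mice. The tRA mice lay in the upper part of the control range or just above it, and control mouse 1 reached the level of tRA mouse 4. Its log2 fold change was 0.088 with a standard error of 0.065 and an edgeR FDR of 0.813, the lowest FDR of the 7 members other than Pde3b. Pde4d, at chr13:108449948-109953461, ranged from 30.1 to 40.6 CPM in control mice and from 27.2 to 35.6 CPM in tRA mice, with a log2 fold change of -0.15 ± 0.12 (SE), or -0.064 without control mouse 4 and -0.017 without tRA mice 3 and 4. Pde4a, at chr9:21165714-21213248, measured 24.2, 25.6, 21.6 and 39.4 CPM in control mice and 20.9, 24.3, 26.6 and 23.9 CPM in tRA mice. Control mouse 4 was the high one, and the other 7 mice lay within 6 CPM of each other. The log2 fold change of Pde4a was -0.21 ± 0.17 (SE), and without control mouse 4 it was 0.0067, so that its direction rested on that mouse.

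Pde7a and Pde8a also encode cAMP-specific enzymes, which are little affected by the inhibitors used against Pde4. Pde7a, on the minus strand at chr3:19223108-19311322, measured 283, 255, 249 and 269 CPM in control mice and 253, 250, 234 and 260 CPM in tRA mice. Of the tRA mice only mouse 3 lay below the lowest control mouse, and the log2 fold change was -0.083 ± 0.067 (SE). An antisense gene, Gm16093, overlaps it, and it held 2 to 21 counts per mouse against 7944 to 10455 for Pde7a; whether the counting used the strand is not given in the sources used here, so reads of the pair cannot be told apart. Pde8a, at chr7:81213596-81334533, measured 29.5, 30.0, 28.1 and 31.7 CPM in control mice and 28.5, 32.5, 33.0 and 32.8 CPM in tRA mice. In the tRA group mouse 1 lay inside the control range and the other 3 lay just above it. The log2 fold change of Pde8a was 0.088 ± 0.076 (SE) with an edgeR FDR of 0.838.

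Pde1b and Pde2a hydrolyse both cAMP and cGMP, Pde1b under control of calcium and calmodulin and Pde2a when cGMP binds it. Pde1b, at chr15:103503034-103530052, ranged from 73.4 to 88.3 CPM in control mice and from 72.0 to 83.3 CPM in tRA mice, with a log2 fold change of -0.026 ± 0.079 (SE). Pde2a, at chr7:101421691-101512827, was the lowest member, with 38 to 81 counts per mouse, 1.10 to 2.37 CPM in control mice and 1.28 to 2.20 CPM in tRA mice. Its SD was 29.4% of the mean in control mice and 22.6% in tRA mice, and its log2 fold change was 0.024 ± 0.26 (SE). The predicted gene Gm45837 overlaps Pde2a on the same strand, with 4 to 11 counts per mouse. How reads on the exons they share were counted is not given in the sources used here. The low level and rank of Pde2a carry that limit, as reads may be missing from its count. Over the 8 members, 4 had a positive and 4 a negative log2 fold change with a median of -0.00092, or -0.033 without tRA mice 3 and 4. Over all genes tested 8290 were positive and 8194 negative with a median of 0.0014.

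Per length, Pde7a was the most abundant member in both groups. In control mice its level was 34.1 ± 1.96 RPKM (SD, n = 4), followed by Pde4b at 16.96 ± 1.06 and Pde1b at 14.7 ± 1.26, with Pde8a at 7.37 ± 0.363, Pde3b at 5.89 ± 1.24, Pde4a at 3.62 ± 1.04, Pde4d at 2.88 ± 0.409 and Pde2a at 0.295 ± 0.0867 RPKM. The ranges over control mice overlapped between the neighbours Pde4b and Pde1b, Pde8a and Pde3b, Pde3b and Pde4a, and Pde4a and Pde4d, and were apart for the other 3 neighbouring pairs. In tRA mice Pde3b, at 8.82 ± 1.04 RPKM, stood before Pde8a, at 7.83 ± 0.533 RPKM, with overlapping ranges, and the order of the other 6 was that of the control mice. The order rests on the length used. With the median length of a gene's transcripts in place of its merged exons, Pde7a, Pde4b and Pde2a held their ranks, while Pde1b moved from rank 3 to rank 5 in both groups and Pde4d passed Pde4a, and each level was higher by over 1.5 times.

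The family's total level differed between the groups by less than the spread between mice, and the 8 members made up nearly all of it. Summed over the 21 catalytic phosphodiesterase genes, the level was 89.5 ± 4.40 RPKM in control mice and 91.4 ± 3.31 RPKM in tRA mice (SD, n = 4), with ranges that overlapped. The 8 members held 95.8% of the sum in control mice and 95.6% in tRA mice. The share of Pde3b was 8.09%, 5.79%, 5.81% and 6.48% in control mice and 10.8%, 9.71%, 8.59% and 9.46% in tRA mice. The share of Pde7a was 37.3% to 38.8% in control mice and 34.8% to 35.5% in tRA mice. Neither set of shares overlapped, but the sum holds the counts that chose Pde3b, so nothing is read from either.

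**Figure D2:**
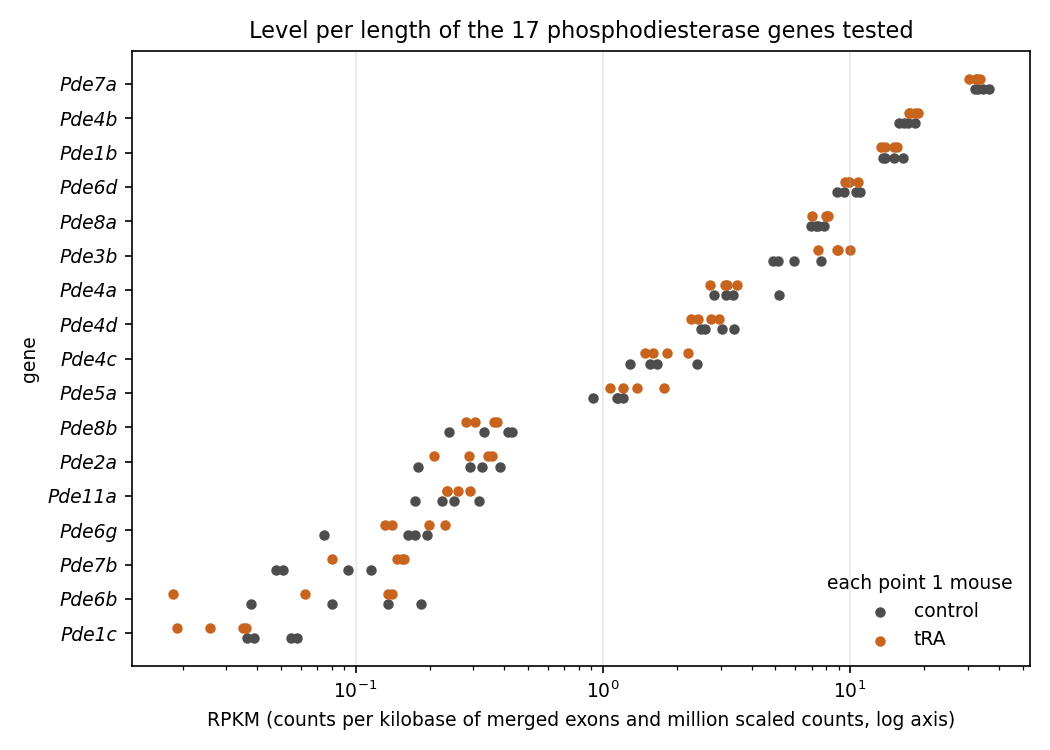
Level per length of the 17 phosphodiesterase genes that passed the filter on low counts, in RPKM on a log axis, 1 point per mouse, sorted by the mean over 8 mice. Pde7a, Pde4b and Pde1b are at the top, and Pde3b is the gene of the middle range with the tRA points shifted to the right, at a mean of 8.82 RPKM in tRA mice and 5.89 RPKM in control mice.

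Of the 16 phosphodiesterase genes outside the 8, 9 passed the filter on low counts. Of these 9, 6 had a positive and 3 a negative log2 fold change (median 0.037, and 0.12 without tRA mice 3 and 4). By edgeR 0 of the 9 were called, with 2 at an unadjusted p under 0.05, and DESeq2 and limma-voom called 0. Pde6d, which encodes a chaperone of lipid-modified proteins and has no catalytic domain, was the most abundant of them per length, at 9.97 RPKM in control mice and 10.04 RPKM in tRA mice, with a log2 fold change of 0.0096. Pde4c (0.037) and Pde5a, the cGMP-specific enzyme that sildenafil inhibits (0.29), followed at 1.73 and 1.10 RPKM in control mice. Pde7b, a relative of Pde7a, had 22 to 63 counts per mouse and measured 0.595, 1.43, 0.636 and 1.16 CPM in control mice and 1.92, 1.95, 1.00 and 1.83 CPM in tRA mice. The log2 fold change of Pde7b was 0.81 ± 0.33 (SE) with an edgeR FDR of 0.757, and its groups overlapped through tRA mouse 3. Pde1c, a calmodulin-dependent enzyme, measured 0.731, 0.778, 1.10 and 1.16 CPM in control mice and 0.519, 0.724, 0.380 and 0.703 CPM in tRA mice, so that all 4 tRA mice lay below the control mice by a small gap. Its log2 fold change was -0.70 ± 0.29 (SE) with an edgeR FDR of 0.757, on 14 to 38 counts per mouse. The log2 fold changes of the others were -0.28 ± 0.58 (SE) for Pde6b, which had 3 to 32 counts per mouse and was at -1.42 without tRA mice 3 and 4, 0.20 for Pde6g, with 6 to 17 counts per mouse, -0.089 for Pde8b and 0.084 for Pde11a. Pde1a, Pde3a, Pde6a, Pde6c, Pde6h, Pde9a and Pde10a had at most 15 counts in any mouse and did not enter the test; Pde3a, the relative of Pde3b found in heart and platelets, had 0 to 9 counts.

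All 8 members share the stretch of the catalytic domain that binds the metal ions, and its coding sequence is shown to let the members be compared base by base. The signature, a spaced pattern of histidine, aspartate and asparagine or glutamine codons, was found once in the longest annotated coding sequence of 21 of the 24 phosphodiesterase genes (GENCODE M21), and was not found in Pde6d, Pde6g and Pde6h, which encode no catalytic subunit. Each stretch of 30 bases is printed 5′ to 3′ on the gene's own strand, and capitals mark the codons of the 4 residues that define the signature. In Pde3b it lies in exon 12 of 16, at chr7:114526921-114526950 on the plus strand, and in Pde7a in exon 8 of 13, at chr3:19233721-19233750 on the minus strand. The other 6 lie on the plus strand, at chr15:103524849-103524878 (Pde1b), chr7:101508482-101508511 (Pde2a), chr9:21204375-21204404 (Pde4a), chr4:102599694-102599723 (Pde4b), chr13:109939313-109939342 (Pde4d) and chr7:81324067-81324096 (Pde8a).
Pde3b: CACGATtacgatCACccaggaagaacaAAT
Pde1b: CATGACtatgagCACacaggcacaaccAAC
Pde2a: CATGACctggacCACagaggcacaaacAAC
Pde4a: CATGACgtggacCACcctggcgtctccAAC
Pde4b: CATGATgtcgatCATcctggagtctccAAT
Pde4d: CATGATgtggacCATcctggggtgtcaAAT
Pde7a: CACGATctggatCACccaggtgttaatCAG
Pde8a: CATGACgtggatCACcctgggagaaccAAC

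Of the 30 bases, Pde3b shares 26 with Pde3a, its closest relative, 21 with Pde1b and with Pde8a, 20 with Pde4b, 19 with Pde7a, 18 with Pde4d, 17 with Pde2a and 16 with Pde4a.

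Likeness to Pde3b was measured by the Pearson correlation of log2 CPM over the 8 mice among 9110 genes with a mean of at least 10 CPM, as a description. The mice share the difference between the groups, so the measure was also taken on deviations from each group's mean. Over the 8 mice the most similar genes were Ctcf, the chromatin insulator protein (r = 0.97, rho = 0.93), Alkbh8, a tRNA-modifying enzyme (r = 0.97, rho = 0.98), Cep120, a centriole protein (r = 0.96, rho = 0.98), Zfp420, a zinc finger gene (r = 0.96, rho = 0.90), and Myadm, a membrane protein gene (r = 0.94, rho = 0.93). Around the group means they were Ptpdc1 (rho = 0.88), Ctcf (rho = 1), Stac2 (rho = 0.83), Tent4b (rho = 0.88) and Ppp1r16b (rho = 1), with r from 0.98 to 0.99. By rho, Ptpdc1 and Tent4b stood at rank 52 and Stac2 at rank 101. Ctcf was in both sets of 5, and with any 1 mouse left out the lowest r of these genes was 0.916, for Myadm. Among the members, Pde4b had an r of 0.83 over the 8 mice and stood at rank 102, while the r was 0.31 for Pde8a, 0.038 for Pde4d, -0.0031 for Pde7a, -0.30 for Pde4a and -0.31 for Pde1b. Around the group means the r was 0.92 for Pde7a, at rank 26, 0.77 for Pde4b, 0.72 for Pde4d, -0.052 for Pde4a, -0.19 for Pde8a and -0.37 for Pde1b. Control mice had the same order in Pde3b and in Pde7a. In the tRA group mouse 3 was lowest in both genes, but mouse 1 was highest in Pde3b and mouse 4 in Pde7a. The log2 fold change was 0.58 for Pde3b and -0.083 ± 0.067 (SE) for Pde7a, which was not called. Pde2a lay under 10 CPM and was not compared.

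The genes that make and carry the cAMP signal were taken from lists of the pathway. Of 100 listed genes other than phosphodiesterases, 82 passed the filter, 43 with a positive and 39 with a negative log2 fold change (median 0.022). By edgeR, DESeq2 and limma-voom 0 of them were called, and 4 had an unadjusted p under 0.05 in edgeR. Among 13 of 18 receptors coupled to the stimulatory G protein that passed the filter, 7 were positive and 6 negative (median 0.10, and 0.0083 without control mouse 4). Gpr174, a lysophosphatidylserine receptor, had a log2 fold change of 0.10, and Calcrl, the receptor subunit for CGRP and adrenomedullin, 0.26 with an edgeR FDR of 0.757.

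Of the G protein alpha subunits that act on the cyclase, 2 were positive and 3 negative among 5 tested (median -0.074, and 0.19 without tRA mice 3 and 4). The inhibitory subunits Gnai2, at 190 RPKM in control mice and 180 RPKM in tRA mice, and Gnai3, at 34.4 and 38.4 RPKM, had log2 fold changes of -0.074 and 0.16. Adenylyl cyclases numbered 7 tested, 5 positive and 2 negative (median 0.085, and -0.018 without tRA mice 3 and 4). Adcy7, a cyclase of blood cells, measured 488, 552, 435 and 550 CPM in control mice and 498, 541, 605 and 618 CPM in tRA mice. The high values were those of tRA mice 3 and 4, and the other 2 tRA mice lay inside the control range. Per length Adcy7 had a mean of 75.2 RPKM in control mice, against 3.92 RPKM for Adcy3, the next cyclase. The log2 fold changes were 0.16 for Adcy7, 0.052 for Adcy3 and 0.64 ± 0.37 (SE) for Adcy8, which held 9 to 41 counts per mouse. On the cGMP side 4 of 7 guanylyl cyclases and kinases were tested, 2 positive and 2 negative (median -0.071). The receptor cyclase Npr2 lay lower in all 4 tRA mice, at 0.787 to 1.19 CPM against 1.27 to 2.14 CPM in control mice, with a log2 fold change of -0.64 ± 0.25 (SE) and an edgeR FDR of 0.757, and the receptor cyclase Npr1 had 0.21.

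Downstream of cAMP, protein kinase A had 8 of 9 genes tested, 4 positive and 4 negative (median 0.015). Prkar1a, its type I regulatory subunit, had a level of 62.3 RPKM in control mice and 62.2 RPKM in tRA mice, and Pkig, an inhibitor of the kinase, a log2 fold change of -0.20. The A-kinase anchoring proteins, scaffolds that hold the kinase near its substrates, had 5 positive and 5 negative among 10 tested (median -0.0083), with 0.062 for Akap8, 0.092 for Akap13 and 0.15 for Akap12. Epac and Rap, the kinase-independent branch, had 3 positive and 1 negative (median 0.067), with 0.054 for Rap1b, 0.080 for Rap1a and 0.11 for Rapgef4, which encodes Epac2. CREB factors and their coactivators had 5 positive and 3 negative of 8 (median 0.051), with -0.12 for Crtc2 and 0.10 for Ep300. The arm that runs from insulin and PI3K to Akt and Pde3b had 10 positive and 4 negative among 14 tested (median 0.049). Pik3r5, a regulatory subunit of PI3K gamma, measured 182, 189, 184 and 210 CPM in control mice and 224, 205, 217 and 240 CPM in tRA mice. Only tRA mouse 2 lay under the highest control mouse, and the log2 fold change was 0.21 ± 0.072 (SE) with an edgeR FDR of 0.757. Pik3cd had a log2 fold change of 0.027 and Akt1 one of 0.018. Reads could also be shared where a named gene overlaps another, on the opposite strand for Pde3a, Pde5a, Pde6h, Pde8b, Pde9a, Adcy3, Npr1, Npr2, Rapgef4, Dusp1, Csf1r and Ctcf and on the same strand for Ep300, Myadm and Gp1bb.

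The early genes that cAMP induces through CREB were all 9 negative, with a median of -0.36, and 0 were called by edgeR, DESeq2 or limma-voom, with 0 at an unadjusted p under 0.05 in edgeR. Fos measured 3337, 3230.3, 3302 and 2866 CPM in control mice and 3563, 2762, 1117 and 1420.1 CPM in tRA mice. Dusp1, a phosphatase of MAP kinases, measured 1394, 1248, 1026 and 1058 CPM in control mice and 1410.5, 1058, 399 and 626 CPM in tRA mice. In both genes tRA mice 3 and 4 were far below the other 6. The log2 fold changes were -0.52 ± 0.30 (SE) for Fos and -0.44 ± 0.31 (SE) for Dusp1. Without tRA mice 3 and 4 they were -0.010 and 0.062, and the list's median was 0.094. The level of Pde3b was 68.0 and 81.6 CPM in tRA mice 3 and 4 and 90.9 and 81.1 CPM in tRA mice 1 and 2, and the relation of the 2 patterns was not tested.

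In total splenocytes, fewer cells of a type and less RNA per cell cannot be told apart, and marker genes of several cell types were compared between the groups. Of 13 T cell markers 11 were positive, with a median of 0.11. By edgeR 0 of the 13 were called and 1 had an unadjusted p under 0.05, a level that 6.49% of all genes tested reached. The summed level was 2633, 2725, 3093 and 3168 CPM in control mice and 3215, 3023, 3072 and 3086 CPM in tRA mice. Trac was the most abundant T cell marker per length, and none of the 13 was under 1 CPM in every mouse. Of 10 neutrophil markers 8 were negative and 2 positive, with a median of -0.61, and the sum was 1005, 1454, 1322 and 1197 CPM in control mice and 828, 815, 724 and 1207 CPM in tRA mice. S100a9 was the most abundant of them, at 542 RPKM in control mice and 362 RPKM in tRA mice, and none was under 1 CPM in every mouse. By edgeR 0 of the 10 were called and 6 had an unadjusted p under 0.05, while DESeq2 called 3 and limma-voom 1. Over all genes, DESeq2 called 0.198% of those with an adjusted p, and limma-voom called 1 gene. The markers called are among the genes that the study lists as changed in these same mice, so nothing is read from these calls. Plasma cell markers had 4 negative and 2 positive of 6 (median -0.24), 0 called by edgeR and 3 with an unadjusted p under 0.05, all negative, with sums of 795, 762, 852 and 964 CPM in control mice and 578, 769, 652 and 643 CPM in tRA mice, and Jchain was the most abundant, at 242 and 176 RPKM. The part of these cell types in the difference of Pde3b was not tested.

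In all 10 marker lists the summed levels of the groups overlapped. The B cell sum averaged 7707 CPM in control mice and 7781 CPM in tRA mice (5 of 9 positive), the monocyte sum 400.4 and 396 CPM (4 of 7 positive, led by Csf1r), the red pulp macrophage sum 554 and 515 CPM (2 of 7, led by Hmox1), the dendritic cell sum 152 and 144 CPM (3 of 7, led by Itgax) and the NK cell sum 328 and 322 CPM (2 of 6, led by Gzma). The erythroid sum was 775, 1470.0, 2229 and 489 CPM in control mice and 2151, 615, 3340.4 and 581 CPM in tRA mice, with 5 of 6 genes positive. The platelet sum averaged 7.84 and 6.97 CPM, with Itga2b the most abundant of its genes.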

How the data were processed

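The 8 libraries, 1 per mouse, were made from splenocyte RNA with TruSeq v2 and run on 1 HiSeq2500 lane. The values the authors deposited are unnormalized counts of reads on each gene, 1 column per mouse. The study's methods name trimming with ea-utils and Btrim, alignment with Bowtie2 and Tophat2 and counting with HTSeq, whereas the submitters' processing notes name STAR 2.5.2b, featureCounts 1.5.1, DESeq2 1.26.0 and GRCm38. A table of the authors' own comparison (mean, fold change, statistic and p-values) was not used.

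Of 51826 identifiers, 51633 matched GENCODE M21, which gave symbols, positions and exon lengths. The test was edgeR 4.0.16 in R 4.3.3, after filterByExpr with a minimum of 10 counts and TMM normalization: the two-sided quasi-likelihood test on the group, with Benjamini-Hochberg adjustment over all genes tested. DESeq2 1.42.0 and limma 3.58.1 were alternatives, with other scalings and filters, a replicate block and each mouse left out. Fits were also run on simulated data, whose outcome is not reported here and on which no result rests. No 2 mice of a group agreed within counting noise. Standard errors were derived from the test's F statistic. Figures were drawn in Python 3.11.15 with matplotlib 3.10.9.

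The members and lists were chosen with earlier results of these data known. Genes named are the 8 members, every other phosphodiesterase tested, per pathway list the 2 most abundant per length and the one with the lowest unadjusted p, the 5 most like Pde3b by each correlation, and per marker list the most abundant and those near 0. The genes that did not pass the filter were named after their values were seen. The values of 1 gene that the rule names are not reported here.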

Additional observations from a re-analysis of the deposited data

Results flagged for a closer look

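In 3 of 120 groups of 4 mice examined, a mouse lay far from the other 3, by the ratio of its gap to the nearest mouse to the group's range; chance gives about 1 in 20 groups, or 6 here. Pde8a was 28.5 CPM in tRA mouse 1, with the other 3 tRA mice between 32.5 and 33.0 CPM. Pde7b was 1.00 CPM in tRA mouse 3, with the others between 1.83 and 1.95 CPM. Npr2 was 2.14 CPM in control mouse 3, with the others between 1.27 and 1.39 CPM.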

How the results depend on the processing

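The direction of Pde3b, which was chosen by its values in these same mice, was the same under all 16 alternatives. Its log2 fold change was 0.59 by DESeq2, 0.61 with library size alone, 0.68 without tRA mice 3 and 4 (chosen after seeing the data), and from 0.50 to 0.73 with 1 mouse left out. The number of genes called, 0 by edgeR, was 27 by DESeq2, 6 with no filter on low counts, 1 by limma-voom, and 3 without tRA mice 3 and 4; leaving out 1 mouse at a time gave 0 to 3 calls, the 3 coming without tRA mouse 4. The cause was not tested. With the replicate number as a block 0 genes were called and Pde3b was at 0.60; the deviations of same-numbered mice correlated by 0.157, -0.0229, -0.0140 and 0.259, so the mice share a number and no pairing was assumed. Not every mouse correlated best with its own number. By Spearman instead of Pearson correlation, 2 of the 5 genes most like Pde3b were shared over the 8 mice and 2 around the group means.

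Of 41 named genes, 23 held their direction under every alternative run. The other 18, none of them called by any of them, changed sign under at least 1, and the cause was not tested. Pde1b was at 0.0024 with library size alone, and Prkar1a at 0.0022 by DESeq2, 0.00093 with RLE factors, 0.025 with library size alone and 0.00032 by limma-voom. Of these 18, those that changed sign without tRA mice 3 and 4 had there a log2 fold change of -0.25 for Pde2a, -0.018 for Adcy3, 0.10 for Prkar1a, -0.025 for Akap13, -0.044 for Ep300, 0.062 for Dusp1 and -0.012 for Akt1. With 1 mouse left out, the lowest and highest values of those that changed sign were -0.061 and 0.029 for Pde1b, -0.16 and 0.18 for Pde2a, -0.32 and 0.0067 for Pde4a (the latter without control mouse 4), -0.085 and 0.24 for Pde4c, -0.57 and 0.098 for Pde6b, -0.044 and 0.054 for Pde6d, -0.029 and 0.34 for Pde6g, -0.24 and 0.018 for Pde8b, -0.042 and 0.24 for Pde11a, -0.010 and 0.21 for Gpr174, -0.043 and 0.12 for Adcy3, -0.084 and 0.088 for Prkar1a, -0.0067 and 0.18 for Akap13, -0.055 and 0.18 for Rap1b, -0.047 and 0.22 for Ep300, -0.0065 and 0.052 for Pik3cd, and -0.0086 and 0.046 for Akt1. Those that kept their sign with 1 mouse left out but moved by over 1.5 times ranged from 0.048 to 0.13 for Pde4b, -0.22 to -0.064 for Pde4d, -0.12 to -0.047 for Pde7a, 0.054 to 0.14 for Pde8a, 0.14 to 0.39 for Pde5a, 0.086 to 0.22 for Adcy7, 0.41 to 0.87 for Adcy8, 0.14 to 0.36 for Npr1, -0.27 to -0.097 for Pkig, 0.036 to 0.10 for Akap8, 0.080 to 0.28 for Akap12, 0.020 to 0.16 for Rap1a, 0.056 to 0.15 for Rapgef4, -0.85 to -0.30 for Fos and -0.77 to -0.20 for Dusp1. Those that kept their sign without tRA mice 3 and 4 but moved by over 1.5 times were at -0.049 for Pde1b, -0.017 for Pde4d, 0.031 for Pde8a, 0.22 for Pde4c, -1.42 for Pde6b, 0.052 for Pde6d, 0.49 for Pde6g, -0.27 for Pde8b, 0.036 for Adcy7, 0.34 for Npr1, -0.067 for Pkig, 0.26 for Rap1b, 0.20 for Rap1a, 0.18 for Rapgef4 and -0.010 for Fos. The list medians also changed sign with 1 mouse left out for the members (-0.069 to 0.053), the other phosphodiesterases (-0.044 to 0.086), the G protein alpha subunits (-0.098 to 0.010), the adenylyl cyclases (-0.0056 to 0.18), the guanylyl cyclases and cGMP kinases (-0.22 to 0.16), protein kinase A (-0.039 to 0.036), the anchoring proteins (-0.032 to 0.062), Epac and Rap (-0.018 to 0.14) and the CREB factors (-0.037 to 0.082); those of the stimulatory receptors (0.0083 to 0.11), the early genes (-0.77 to -0.14) and the PI3K arm (0.0080 to 0.059) did not.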
